A study of Saccharomyces cerevisiae with 8 samples.

Results

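The comparison described here sets the not1-2 strain of the budding yeast Saccharomyces cerevisiae directly against the spt3 strain. It uses 4 of the 8 arrays of the study, 2 per strain, chosen by their sample titles and paired by replicate number. The 4 other arrays, 2 of the not1-2 spt3 double mutant and 2 of the wild type, served to estimate the spread and to place the levels. Every strain was cultured in glucose-rich liquid medium for 24 h at 30°C, shifted at an optical density of 0.2 to 37.5°C, which is restrictive for the mutant, and collected at a density of 0.8. PolyA RNA was labelled with biotin and hybridised to an Affymetrix yeast array. The labels give the strains only by these names. Mating type, further alleles and the molecular nature of both mutations are not given in the sources used here, and neither is how many clones or cultures stand behind each strain.

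Not1, the product of CDC39, is the scaffold on which the Ccr4-Not complex assembles. That complex shortens the polyA tails of messenger RNAs, which starts their decay, and it also acts in transcription. Spt3 belongs to the SAGA coactivator and helps to place the TATA-binding protein at promoters, in particular at those of inducible genes. SPT genes were found as suppressors of insertions of the Ty retrotransposon, and Spt3 is needed for transcription of Ty elements. Set side by side, the strains show which RNAs differ between cells with altered Not1 and intact Spt3 and cells with altered Spt3 and intact Not1. A difference does not tell which strain departs from the wild type, so the wild-type level is given beside many of the genes below.

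A signal is the deposited intensity of a probe set, rescaled so that all arrays share the same median. Any signal below 1.72, which is the 10th percentile over the arrays, was raised to that floor. Where a strain sat at the floor, the size of its difference is therefore only a lower bound. Pairs of values are for replicate 1 and replicate 2, in that order. Differences are not1-2 minus spt3 on the log2 scale with their standard error (SE) from a limma fit over all 8 arrays, in which the replicate number was a block. Adjusted p-values are Benjamini-Hochberg values over all 7043 probe sets tested, and a gene is said to rise or fall where its adjusted p was below 0.05. Of these probe sets 5355 named 1 gene. Arrays carry no read depth, and their number, 2 per strain, limits the precision. The median SE of a difference was 0.35.

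Control signals that follow RNA integrity differed between replicate numbers and, on the replicate 1 arrays, also widely between the strains. The ratio of the 3′ to the 5′ control signal of the actin gene ACT1 was 36.75 and 2.099 in not1-2, against 5.835 and 1.787 in spt3. It was 12.19 and 1.842 in the double mutant and 199.1 and 1.877 in the wild type. On the replicate 1 arrays not1-2 thus had the higher ratio, and on the replicate 2 arrays the strains were close. The signals of replicate arrays correlated at 0.913 in not1-2 and 0.950 in spt3, across genes, which are not independent replicates.

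The mutated genes and markers came first. SPT3 gave 29.9 and 22.8 in not1-2, while both spt3 arrays sat at the floor of 1.72, a difference of at least 15.2-fold (log2 difference 3.93 ± 0.45 SE, limma adjusted p = 0.00879). It was also at the floor on both double-mutant arrays, and had 25.3 and 15.5 in the wild type. CDC39 had 14.2 and 27.3 in not1-2, against 55.3 and 34.7 in spt3, and this difference of -1.15 ± 0.43 did not pass (adjusted p = 0.186). The wild type, with 18.0 and 23.3, overlapped not1-2, so the CDC39 level does not check the not1-2 label. TRP1, a tryptophan synthesis gene commonly used as a selectable marker, was at the floor on both not1-2 arrays, against 44.8 and 56.2 in spt3. It fell at least 29.2-fold in not1-2 (-4.87 ± 0.39, adjusted p = 0.00406), and the wild type was at the floor too. The strains compared therefore differ in TRP1 expression as well as in NOT1 and SPT3.

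Mating-type expression was alike in kind in both strains. MF(ALPHA)1, the gene of the alpha-factor pheromone, had 534 and 1617 in not1-2, against 1582 and 886 in spt3, and 14.9 and 17.1 in the wild type. Its difference of -0.35 ± 0.49 did not pass (adjusted p = 0.735). STE3, the receptor for a-factor, had 76.2 and 174 in not1-2, against 107 and 81.9 in spt3 (0.30 ± 0.42, adjusted p = 0.737). Of the 5 alpha-specific genes 0 passed and 1 had an unadjusted limma p under 0.05, with a median difference of 0.50. That 1 was SAG1, the alpha-agglutinin of the cell surface, with 323 and 530 in not1-2, against 147 and 123 in spt3 (1.62 ± 0.39, adjusted p = 0.0671).

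Among the 7 a-specific genes 1 passed, MFA1, a gene of the a-factor pheromone. It had 34.5 and 9.23 in not1-2, against 4.82 and 2.30 in spt3, and rose by 2.42 ± 0.38 (adjusted p = 0.0249). These levels are far below the 3999 and 737 of the wild type, and its probe set is of a family type that can match related sequences. The other 6 had differences between 0.07 and 0.91. MFA2, the second a-factor gene, had 18.0 and 11.5 in not1-2, against 10.6 and 7.44 in spt3, and 4972 and 1448 in the wild type. Of 30 genes of pheromone signalling and cell fusion 1 passed, PRM10, a pheromone-regulated membrane protein, at 178 and 181 in not1-2, against 66.3 and 58.8 in spt3 (1.52 ± 0.30, adjusted p = 0.0408).

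Most probe sets that differed were higher in not1-2. In all, 138 probe sets were higher, 1.96% of those tested, and 23 were lower, 0.327%, which together make 161 calls or 2.29%. Of these, 73 of the higher and 19 of the lower probe sets named 1 gene. A difference of more than 4-fold was reached by 71 of the higher and 9 of the lower probe sets. Over all probe sets the median difference was -0.07 and 44.7% lay above 0, values that the centring of each array on its median largely sets. Of the 5355 probe sets that named 1 gene, 1983 lay above 0, with a median of -0.16. Counts of calls, and of members above or below 0, in the lists below are to be read beside these shares. The not1-2 and spt3 values did not overlap for 155 of the 161 called probe sets, against 39.4% of all probe sets tested. All 161 had the same sign in both replicate pairs, which a fit with the replicate number as a block favours.

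**Figure D1:**
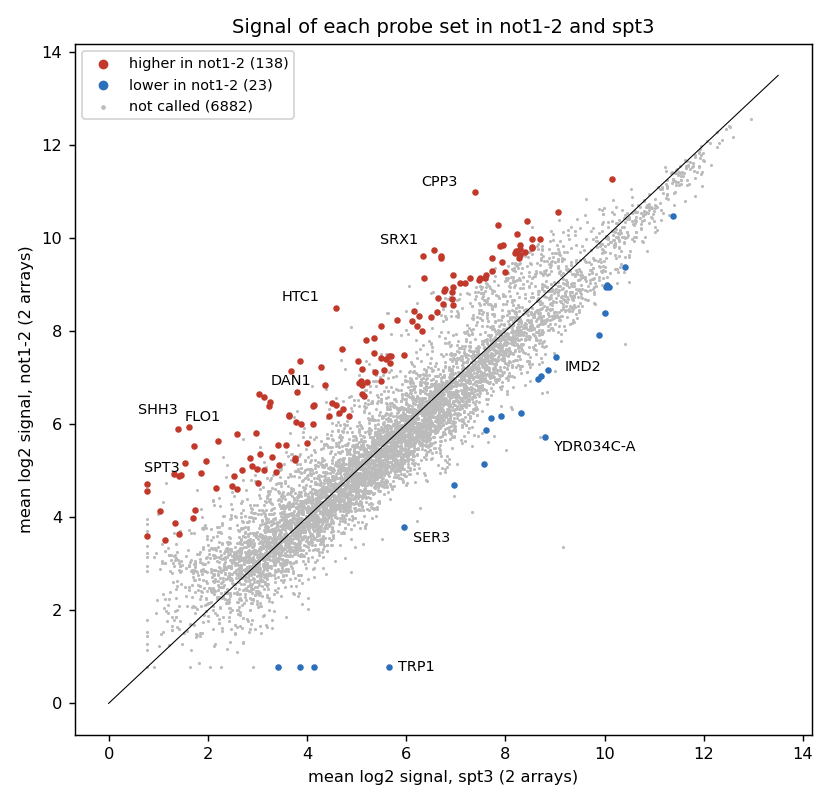
Mean log2 signal of each of the 7043 probe sets in not1-2 (vertical axis, 2 arrays) against its mean in spt3 (horizontal axis, 2 arrays), with the 138 probe sets higher and the 23 lower in not1-2 in colour and the line of equal signal. Calls above the line outnumber those below it, and TRP1 lies at the floor of not1-2.

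These counts rest on the block and on few arrays. Without the replicate block 1 probe set was higher, HTC1 (adjusted p = 0.0351), and 1 was lower, TRP1 (adjusted p = 0.0304), with 550 at an unadjusted p under 0.05 against 1407 with the block. Leaving out not1-2 replicate 1 left 0 calls in limma (671 at an unadjusted p under 0.05), and leaving out not1-2 replicate 2 left 18 higher and 1 lower. The higher and lower counts were 41 and 31 without spt3 replicate 1, and 188 and 66 without spt3 replicate 2. Dropping double-mutant replicate 1 gave 79 and 13, dropping its replicate 2 gave 81 and 13, and dropping wild-type replicate 2 gave 178 and 39. Fitting the ACT1 ratio beside the block gave 22 higher and 5 lower, of which 20 and 4 were among the 161 main calls. All 161 differences then kept their sign and at least 76.3% of their size, with fewer residual degrees of freedom.

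The named genes with the highest differences are given first, by gene. FLO1, the flocculin that makes cells stick together, had 65.4 and 55.2 in not1-2, against 1.72 and 4.03 in spt3. It rose by 4.51 ± 0.55 (adjusted p = 0.0103), a lower bound with 1 spt3 array at the floor. FLO1 passed the filter on low signals through not1-2 alone, as did JLP1, MPC3, JEN1, SPO75, YNR064C and XBP1, so these 7 genes were tested because not1-2 was high. Of all probe sets tested 123 passed it that way, and 7 of them were called. In the wild type FLO1 had 1.72 and 5.35. That not1-2 stood above all 3 other strains was set in advance by its way through the filter. SHH3, related in sequence to a membrane subunit of succinate dehydrogenase, had 91.4 and 41.6 in not1-2, against 3.31 and 2.85 in spt3 (4.33 ± 0.70, adjusted p = 0.0249). SPO75, needed for sporulation, had 23.2 and 24.1 in not1-2 and lay at the floor on both spt3 arrays, at least 13.8-fold lower (3.78 ± 0.61, adjusted p = 0.0249). JLP1, a dioxygenase that releases sulfur from sulfonates, had 33.0 and 39.6 in not1-2, against 1.77 and 4.79 in spt3 (3.64 ± 0.58, adjusted p = 0.0249).

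Not all of the high differences sat at weak signals. CPP3 had 2616 and 1596 in not1-2, against 295 and 95.5 in spt3, and rose by 3.61 ± 0.38 (adjusted p = 0.00879). HTC1 had 333 and 389 in not1-2, against 27.6 and 20.7 in spt3 (3.91 ± 0.35, adjusted p = 0.0053). Its wild-type signals of 92.0 and 98.6 lay between the mutants and apart from both. HPF1, a mannoprotein of the cell wall, had 707 and 870 in not1-2, against 110 and 60.2 in spt3 (3.27 ± 0.43, adjusted p = 0.0142). SPG4, needed for survival in stationary phase, had 147 and 62.6 in not1-2, against 11.0 and 7.07 in spt3 (3.45 ± 0.35, adjusted p = 0.00879). In the wild type SPG4 had 10.6 and 4.30, close to spt3.

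QDR2, a multidrug transporter, had 28.6 and 88.2 in not1-2, against 6.41 and 3.31 in spt3 (3.45 ± 0.54, adjusted p = 0.0249). MPC3, which helps carry pyruvate into mitochondria, had 39.7 and 34.4 in not1-2, against 3.55 and 4.30 in spt3 (3.24 ± 0.52, adjusted p = 0.0249). Its wild-type signals, 1.72 and 2.35, were as low as those of spt3. YNL277W-A and YNR064C, each with 1 spt3 array at the floor, both rose by at least 3.46 (adjusted p = 0.039 and 0.0393).

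**Figure D2:**
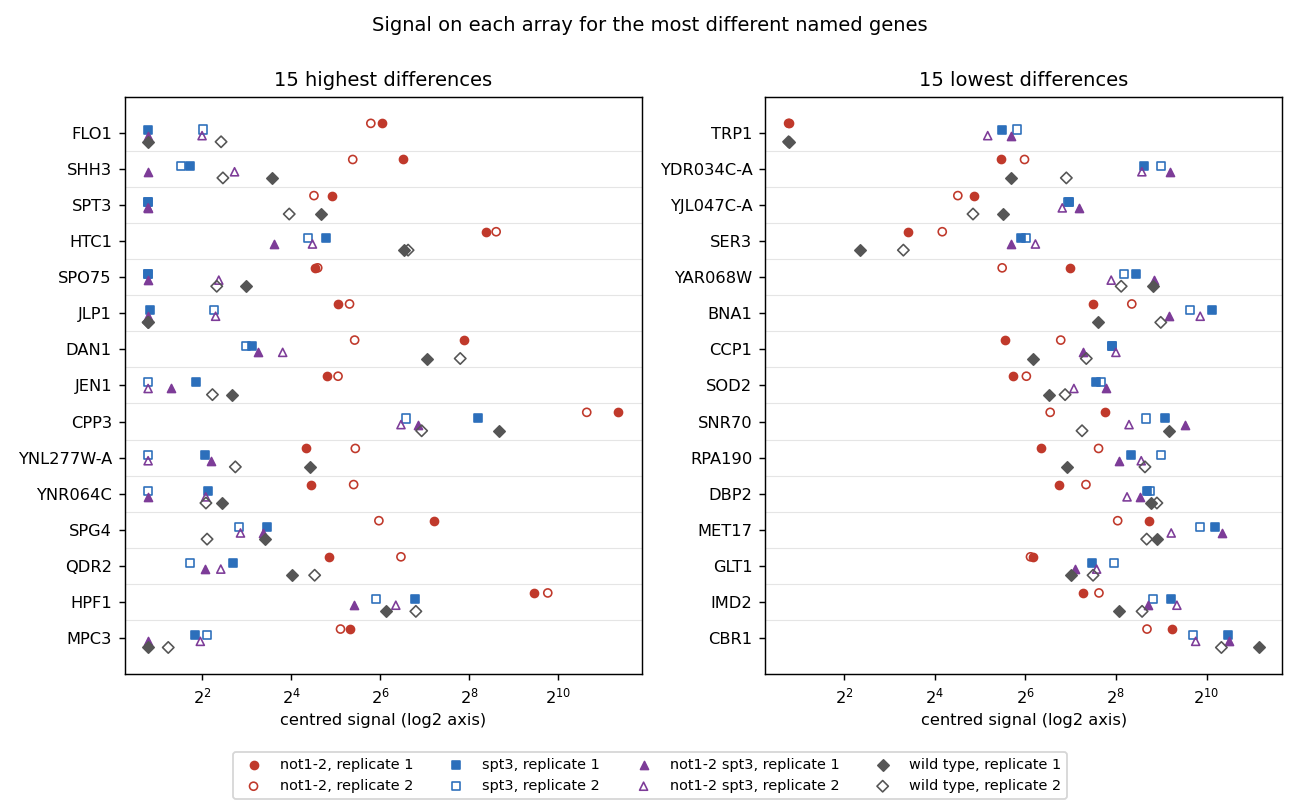
Signal on each of the 8 arrays (log2 axis) for the 15 named genes with the highest (left) and the 15 with the lowest (right) differences among those that passed and did not overlap between the strains. Colours mark strains, filled symbols replicate 1 and open symbols replicate 2; double-mutant symbols lie beside those of spt3 in nearly every gene, and wild-type symbols vary in place, near spt3 at MPC3 and near not1-2 at YJL047C-A.

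Genes of the cell wall were among the calls. Of 30 genes of cell wall integrity and Pir proteins measured, 4 rose (13.3%, beside 1.96% of all probe sets) and 0 fell, with a median difference of 0.13 over the list. YPS3, a surface-anchored aspartic protease, had 715 and 863 in not1-2, against 91.6 and 117 in spt3, and rose by 2.92 ± 0.33 (adjusted p = 0.00879). PST1, a wall protein, had 1111 and 1082 in not1-2, against 358 and 252 in spt3 (1.87 ± 0.26, adjusted p = 0.0167). KDX1, related to the wall-integrity kinase Slt2, rose by 2.19 ± 0.38 (adjusted p = 0.0305), and SRL3 by 1.84 ± 0.34 (adjusted p = 0.0321). In all 17 of the 30 members lay above 0. Of 13 flocculins and genes of filamentous growth only FLO1 passed, and their median was 0.10.

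Mannoproteins that yeast makes without oxygen were among the higher genes. Of 8 DAN and TIR genes measured 4 rose, DAN1, TIR3, PAU23 and DAN4 (50.0%, beside 1.96% of all probe sets), and the median of the list was 1.48. DAN1 had 235 and 42.9 in not1-2, against 8.62 and 7.84 in spt3, and rose by 3.61 ± 0.66 (adjusted p = 0.0321). TIR3 had 1066 and 330 in not1-2, against 132 and 116 in spt3 (2.26 ± 0.40, adjusted p = 0.0317). DAN4 had 120 and 84.2 in not1-2, against 35.3 and 34.2 in spt3 (1.53 ± 0.33, adjusted p = 0.0497). In the wild type DAN1 had 133 and 222, TIR3 884 and 622, and DAN4 112 and 108, all above spt3 and of the order of not1-2.

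The 10 related seripauperin (PAU) genes measured, a family also induced without oxygen, lay above 0. They are 10 of 24 listed, since the others did not pass the filter on low signals or had no probe set of their own. Their differences ran from 1.92 to 2.88, and 2 of the 10 rose. PAU7 had 229 and 46.5 in not1-2, against 13.7 and 14.3 in spt3 (2.88 ± 0.59, adjusted p = 0.0457). PAU23 had 635 and 142 in not1-2, against 85.7 and 56.0 in spt3 (2.12 ± 0.45, adjusted p = 0.0497). PAU23 is also in the DAN and TIR list above, so its call is counted in both. PAU genes are near copies of each other, so the probe sets may share their signal. For both lists the difference was larger on the replicate 1 arrays. For replicates 1 and 2 the medians of the PAU list were 3.62 and 1.05, and those of the DAN and TIR list 2.63 and 0.85. The ACT1 ratios given above moved with that split, and their part in it was not tested.

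Of 22 phosphate starvation genes 3 rose (13.6%, beside 1.96% of all probe sets), with a list median of 0.05. SPL2, a regulator of low-affinity phosphate uptake, had 25.9 and 119 in not1-2, against 6.45 and 5.67 in spt3 (3.20 ± 0.64, adjusted p = 0.0432). PHO89, a phosphate transporter, had 50.0 and 106 in not1-2, against 13.1 and 11.8 in spt3 (2.54 ± 0.41, adjusted p = 0.0249). PHO5, the main secreted acid phosphatase, had 253 and 303 in not1-2, against 57.7 and 96.2 in spt3 (1.89 ± 0.38, adjusted p = 0.045). PHO5 had 85.3 and 66.9 in the wild type, overlapping spt3, and PHO89 had 19.6 and 12.9.

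Of 22 genes of gluconeogenesis, the glyoxylate cycle and carboxylate uptake 2 rose (9.09%, beside 1.96% of all). PCK1, which commits carbon to gluconeogenesis, had 522 and 403 in not1-2, against 132 and 111 in spt3 (1.92 ± 0.31, adjusted p = 0.0249). JEN1, the lactate and pyruvate permease, had 27.9 and 33.1 in not1-2, against 3.62 and 1.72 in spt3 (3.61 ± 0.51, adjusted p = 0.0186), a lower bound. JEN1 was tested only because not1-2 was high, so the share of this list rests in part on that selection. The list median was 0.15. Among 24 genes of glycolysis and fermentation 1 passed, TDH1, an isoform of the glycolytic glyceraldehyde phosphate dehydrogenase, at 1775 and 1303 in not1-2, against 879 and 322 in spt3 (1.52 ± 0.31, adjusted p = 0.0463). Of 20 hexose transporter and glucose sensing genes 0 passed and 4 had an unadjusted limma p under 0.05, a share equal to the 20% of all probe sets. The lowest p there belonged to GLK1, a glucokinase, at 0.83 ± 0.31 (adjusted p = 0.181), and to HXK2, the main hexokinase in glucose, at -1.18 ± 0.47 (adjusted p = 0.202).

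Stress and storage genes were mixed. Among 50 Msn2 and Msn4 targets, the general stress genes, 4 rose (8.0%, beside 1.96% of all) and 1 fell (2.0%, beside 0.327%), with 34 above 0 and a median of 0.28. XBP1, a stress-induced repressor, had 23.5 and 40.7 in not1-2, against 2.53 and 5.26 in spt3 (3.09 ± 0.46, adjusted p = 0.0225). XBP1 was tested only because not1-2 was high, so the share that rose rests in part on that selection. RTS3 had 178 and 300 in not1-2, against 39.7 and 42.5 in spt3 (2.49 ± 0.34, adjusted p = 0.015). GSY1, a glycogen synthase and the sole call among 22 trehalose and glycogen genes, rose by 1.68 ± 0.31 (adjusted p = 0.0325). TMA10 rose by 1.43 ± 0.30 (adjusted p = 0.0497). Of 29 heat shock and chaperone genes 24 lay below 0, with a median of -0.35, beside -0.16 over all probe sets naming 1 gene. The sole call there was higher, BTN2, a factor of protein sorting, at 212 and 148 in not1-2, against 58.4 and 45.5 in spt3 (1.78 ± 0.31, adjusted p = 0.0321).

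Within redox defence the calls went both ways. SRX1, the sulfiredoxin that repairs oxidised peroxiredoxin, had 858 and 863 in not1-2, against 134 and 66.5 in spt3, and rose by 3.19 ± 0.41 (adjusted p = 0.0139). Its wild-type signals, 105 and 48.6, overlapped those of spt3. CCP1, the mitochondrial cytochrome c peroxidase, had 47.0 and 110 in not1-2, against 243 and 241 in spt3, and fell by 1.75 ± 0.37 (adjusted p = 0.0497). SOD2, the mitochondrial superoxide dismutase, had 53.4 and 65.1 in not1-2, against 188 and 203 in spt3, and fell by 1.73 ± 0.35 (adjusted p = 0.0446). These were the only calls among 26 thioredoxin and peroxide genes, 3.85% higher and 7.69% lower, beside 1.96% and 0.327% of all probe sets. Of the 26 genes 20 lay below 0, and their median of -0.18 was near the -0.16 of all probe sets naming 1 gene.

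Genes of vitamin, nitrogen, sulfur and membrane metabolism added a few calls. SNZ1 and SNO1, neighbours that act together in vitamin B6 synthesis, both rose. SNZ1 had 298 and 129 in not1-2, against 36.6 and 18.5 in spt3 (2.91 ± 0.34, adjusted p = 0.00879). SNO1 had 81.2 and 66.3 in not1-2, against 17.5 and 8.82 in spt3 (2.56 ± 0.37, adjusted p = 0.0204). BNA1, an enzyme of NAD synthesis from tryptophan, fell by 1.96 ± 0.40 (adjusted p = 0.0456), with 182 and 326 in not1-2, against 1116 and 800 in spt3. These are the 3 calls among 26 genes of thiamine, NAD and vitamin metabolism, whose median was 0.36. The 2 higher ones are 7.69% of the list, beside 1.96% of all probe sets.

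DAL4, the allantoin permease, was the only call among 21 genes under nitrogen catabolite repression, with 79.9 and 55.0 in not1-2, against 16.5 and 11.3 in spt3 (2.28 ± 0.28, adjusted p = 0.0106). RTA1, a membrane protein tied to sterol-drug resistance, had 145 and 48.7 in not1-2, against 8.02 and 11.2 in spt3 (3.15 ± 0.49, adjusted p = 0.0249). With QDR2 it made 2 calls among 19 multidrug resistance genes (10.5%, beside 1.96% of all). PRB1, vacuolar proteinase B, rose by 2.09 ± 0.32 (adjusted p = 0.0249), the sole call among 14 vacuolar proteases. SGA1, the glucoamylase of sporulation, rose by 2.62 ± 0.45 (adjusted p = 0.0305), the sole call among 19 listed genes of meiosis and sporulation. ASH1, the repressor that keeps daughter cells from switching mating type, had 859 and 676 in not1-2, against 291 and 156 in spt3 (1.84 ± 0.32, adjusted p = 0.0305), and was the 1 call among 33 genes of the G1/S transition.

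Among the lower genes SER3, which starts serine synthesis from glycolysis, had 10.6 and 18.0 in not1-2, against 59.6 and 64.9 in spt3, and fell by 2.17 ± 0.31 (adjusted p = 0.0206). In the wild type it had 5.08 and 9.92, lower still, so spt3 and the double mutant, with 51.2 and 74.8, were the high strains. SER3 was the only call among 10 genes of serine and glycine synthesis. MET17, which makes homocysteine from sulfide, had 425 and 263 in not1-2, against 1158 and 928 in spt3 (-1.63 ± 0.28, adjusted p = 0.0305). JLP1 and MET17, of opposite direction, were the only calls among 26 sulfur genes. IMD2, an IMP dehydrogenase of guanine nucleotide synthesis, had 154 and 198 in not1-2, against 598 and 449 in spt3 (-1.57 ± 0.32, adjusted p = 0.0453), though its probe set may also match related IMD genes. It was the sole call among 16 purine genes, whose median was -0.46. GLT1, glutamate synthase, had 71.8 and 69.3 in not1-2, against 176 and 250 in spt3 (-1.57 ± 0.30, adjusted p = 0.0392).

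Besides TRP1, the lowest differences among the called genes were those of YDR034C-A and YJL047C-A, which are small open reading frames. YDR034C-A had 44.3 and 63.3 in not1-2, against 393 and 507 in spt3, and fell by 3.08 ± 0.42 (adjusted p = 0.015). YJL047C-A had 29.4 and 22.8 in not1-2, against 125 and 124 in spt3, and fell by 2.26 ± 0.30 (adjusted p = 0.0142). In the wild type these had 51.5 and 120, and 45.4 and 28.8, nearer to not1-2. YAR068W fell by 2.08 ± 0.34 (adjusted p = 0.0249). The probe sets of YDR034C-A and YAR068W are of a type shared between transcripts. CBR1, cytochrome b5 reductase, fell by 1.13 ± 0.20 (adjusted p = 0.0321).

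Of 95 ribosome biogenesis genes 2 fell (2.11%, beside 0.327% of all probe sets) and 0 rose. In the list 84 genes lay below 0, with a median of -0.41, beside -0.16 over all probe sets that name 1 gene. The medians for replicates 1 and 2 were -0.62 and -0.18, beside -0.27 and -0.03. RPA190, the largest subunit of RNA polymerase I, had 81.5 and 196 in not1-2, against 322 and 508 in spt3 (-1.68 ± 0.35, adjusted p = 0.0497). DBP2, an RNA helicase, had 108 and 162 in not1-2, against 414 and 428 in spt3 (-1.67 ± 0.30, adjusted p = 0.0321). The small nucleolar RNA gene SNR70 had 218 and 93.7 in not1-2, against 539 and 405 in spt3 (-1.71 ± 0.36, adjusted p = 0.0497). Of 80 cytosolic ribosomal protein genes measured 71 lay below 0. Among the 80, 0 passed and 16 had an unadjusted limma p under 0.05, the same share as the 20% of all probe sets. Their median was -0.24, beside -0.16 over all probe sets that name 1 gene. After quantile normalization it was -0.08, beside -0.07 over all probe sets tested.

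Other lists held 0 calls in limma, and their members are given as values with the number at an unadjusted p under 0.05, which 20% of all probe sets tested reached (1407 of 7043). All 5 histone genes measured lay below 0, with a median of -0.74 and 3 at that unadjusted level. HTB2, a histone H2B gene, had 390 and 379 in not1-2, against 856 and 942 in spt3 (-1.22 ± 0.31, adjusted p = 0.0795). Of 6 genes encoded in mitochondrial DNA 5 lay below 0 and 4 reached the unadjusted level. COB, cytochrome b, was at the floor on both not1-2 arrays, against 19.4 and 6.19 in spt3 (-2.67 ± 0.61, adjusted p = 0.0605). The exception was COX1, a cytochrome oxidase subunit, with 358 and 493 in not1-2, against 144 and 110 in spt3 (1.74 ± 0.52, adjusted p = 0.112).

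Nuclear genes of the respiratory chain gave opposite medians in the replicate pairs. Over 40 genes the median was -0.65 for replicate 1 and 0.22 for replicate 2, and 8 genes reached the unadjusted level. HAP4, the activator of respiratory genes, had 52.9 and 169 in not1-2, against 14.8 and 39.3 in spt3 (1.97 ± 0.51, adjusted p = 0.0822). The 33 proteasome genes, 2 of them at the unadjusted level, had medians of -0.70 and 0.27. Among 20 genes of the tricarboxylic acid cycle 2 reached the unadjusted level. The first of them by p was LSC2, a subunit of succinyl-CoA ligase, which had 395 and 331 in not1-2, against 171 and 114 in spt3 (1.37 ± 0.30, adjusted p = 0.0533). ERG2, a sterol isomerase, had 1105 and 862 in not1-2, against 1835 and 1624 in spt3 (-0.82 ± 0.18, adjusted p = 0.0525), in a list of 36 sterol and hypoxic genes of which 6 reached the unadjusted level.

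The lists around the mutated genes and the TRP1 marker are given next, beside 2.29% called and 20% at an unadjusted limma p under 0.05 over all probe sets. Of 12 Ccr4-Not genes 0 passed and 2 reached that unadjusted level, with a median of -0.26. CCR4, a deadenylase of the complex, had 51.6 and 86.0 in not1-2, against 92.0 and 147 in spt3 (-0.80 ± 0.31, adjusted p = 0.191). Among 31 genes of mRNA decay 0 passed and 9 reached that unadjusted level. PAB1, the polyA-binding protein, had 58.6 and 227 in not1-2, against 272 and 411 in spt3 (-1.54 ± 0.45, adjusted p = 0.103). SPT3 itself was the only call among 20 SAGA genes, whose median was -0.32. Of 24 genes of the TATA-binding protein, its regulators and TFIID 0 passed and 2 reached the unadjusted level. SPT15, the TATA-binding protein, had 126 and 167 in not1-2, against 289 and 235 in spt3 (-0.85 ± 0.34, adjusted p = 0.206). Of 9 tryptophan synthesis genes all lay below 0, with TRP1 the only call and a median of -0.67. Among 32 amino acid genes under Gcn4 0 passed and 10 reached the unadjusted level, with LEU9 at -1.19 ± 0.30 (adjusted p = 0.0787) and ARG1 at -1.45 ± 0.42 (adjusted p = 0.0999).

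The remaining lists had 0 calls and medians near that of all probe sets or modestly below or above it. The median was -0.17 for 71 mitochondrial ribosomal proteins, with 1 gene at an unadjusted limma p under 0.05, and 0.09 for 27 genes of peroxisomal fatty acid oxidation, with 5. It was -0.01 for 26 iron uptake genes, with 3, and -0.27 for 19 phospholipid genes, with 3. Arginine genes had -0.42 over 13 genes with 1 at that level, galactose genes 0.29 over 8 genes with 2, and zinc and copper genes -0.08 over 15 genes with 2. Genes of Sir silencing and the silent cassettes had -0.10 over 12 genes with 2. RAP1, the telomere and promoter factor of that list, had 16.0 and 20.3 in not1-2, against 36.8 and 37.0 in spt3 (-1.03 ± 0.35, adjusted p = 0.145).

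**Figure D3:**
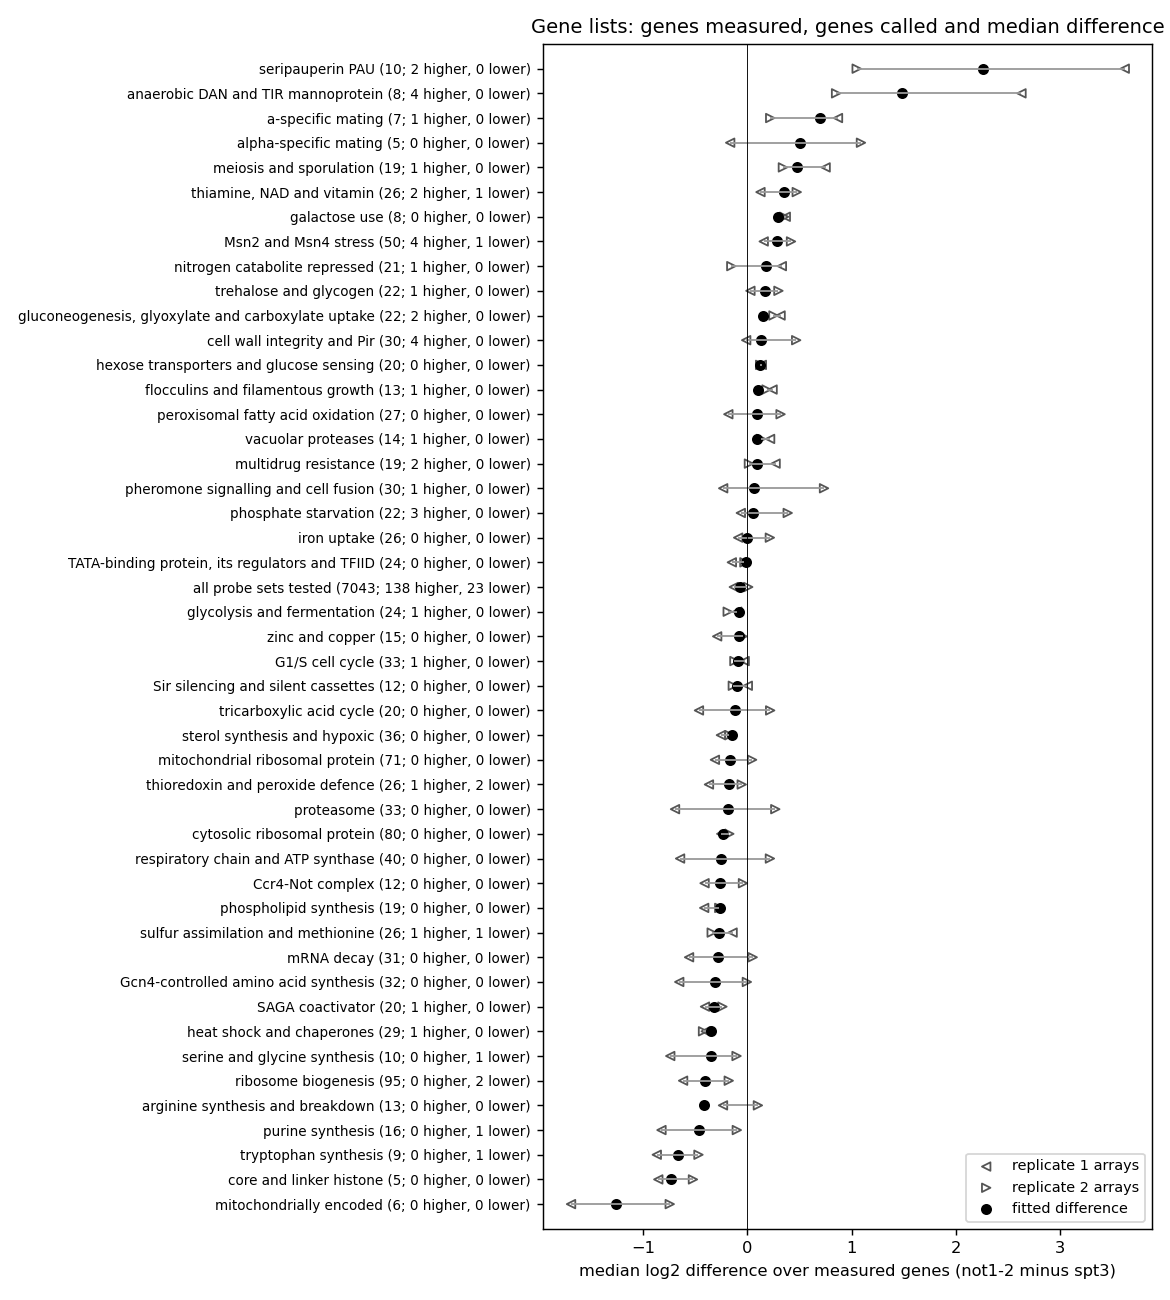
Median log2 difference (not1-2 minus spt3) over the measured genes of each list (black dots), with the medians on the replicate 1 and replicate 2 arrays as triangles; the numbers beside each name are the genes measured and called. The PAU list (2.26) and the DAN and TIR list (1.48) have the highest medians and are wide between replicates, and the mitochondrially encoded list (-1.26) has the lowest.

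Many of the higher probe sets named no gene. Of 235 probe sets of the family type, which by design match several similar sequences, that named no gene in the annotation, 35 were higher (14.9%) and 1 was lower. In all 216 of the 235 lay above 0, with a median of 1.17, and medians of 1.25 and 1.08 in the replicate pairs. Among the 5355 probe sets that named 1 gene 1.36% were higher and the median was -0.16. Other probe sets of the family type went both ways. The 100 that named several genes had a median of 0.76, with 93 above 0 and 3 higher. The 132 that named 1 gene had a median of -0.23, with 50 above 0 and 5 higher. The 35 had median signals of 661 and 358 in not1-2, against 169 and 93.1 in spt3. They had 218 and 90.5 in the double mutant and 673 and 203 in the wild type. Within each replicate number, the medians of both strains labelled spt3 were lower than those of both others. The 35 were chosen for being higher in not1-2 than in spt3, so that part of the order was set in advance. The brightest of them over all 8 arrays had 1457 and 695 in not1-2, against 589 and 237 in spt3 (1.43 ± 0.26, adjusted p = 0.0321). Family probe sets share targets, so the 35 are not independent. YHR214C-B, a Ty1 retrotransposon gene and named here after its value was seen, is from a family probe set too, with 662 and 1250 in not1-2, against 230 and 242 in spt3 (1.95 ± 0.34, adjusted p = 0.0305).

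The calls were made with the replicate number as a block, which favours probe sets whose replicate pairs are alike, so their sizes by pair are a description. Over the 138 higher probe sets the median difference was 2.15 for replicate 1 and 1.96 for replicate 2, and 80 of them were larger for replicate 1. Over the 23 lower probe sets the medians were -1.95 and -1.82. Across all 7043 probe sets the differences of the replicate pairs correlated at 0.474, which is across genes.

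**Figure D4:**
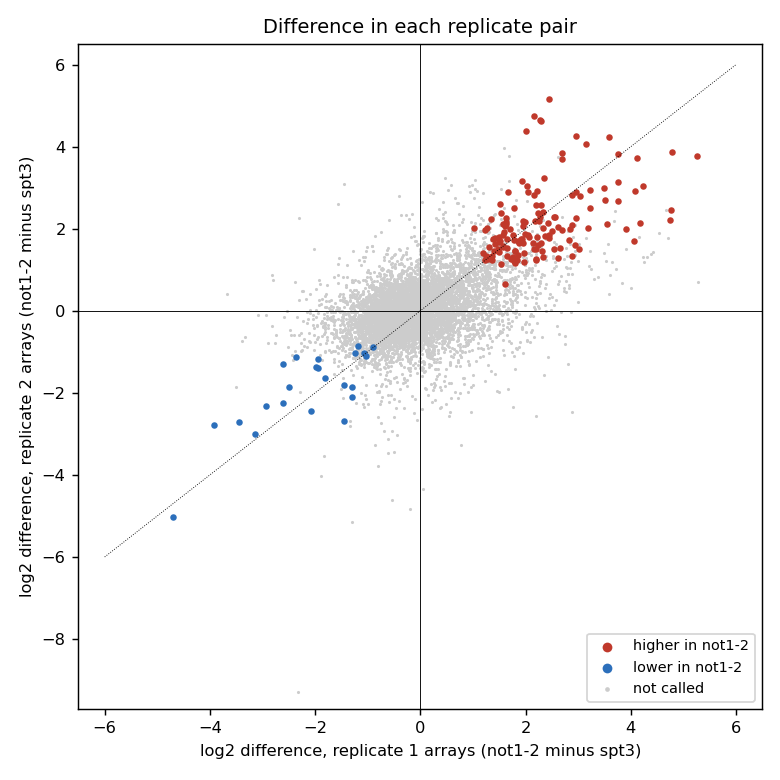
Log2 difference (not1-2 minus spt3) on the replicate 2 arrays (vertical axis) against that on the replicate 1 arrays (horizontal axis) for every probe set, with calls in colour and the line of equal difference dotted. All 161 calls lie in the quadrants of equal sign, and the isolated point far below the others is RDN5-1.

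The double mutant lay with spt3. For the 73 higher probe sets that named 1 gene the median signals over probe sets were 147 and 106 in not1-2, 30.2 and 28.6 in the double mutant, and 35.3 and 32.3 in spt3. For the 19 lower ones they were 128 and 162 in not1-2, 455 and 377 in the double mutant, and 414 and 449 in spt3. The double mutant was nearer to spt3 than to not1-2 for 136 of the 138 higher and 23 of the 23 lower probe sets, against 74.2% of all those tested. The nearness is a description, since the probe sets were chosen with the spt3 and not1-2 arrays used in it. TRP1 had 51.8 and 36.0 in the double mutant, as high as in spt3, and lay at the floor in not1-2 and the wild type. TRP1 and SPT3 expression were thus opposite over all strains, with TRP1 above the floor only where SPT3 was at it. Their parts in the nearness cannot be told apart and were not tested. Of named genes GID10, a substrate receptor of the ubiquitin ligase that degrades gluconeogenic enzymes, was nearer to not1-2, with 9.69 and 5.05 in the double mutant, 18.4 and 8.55 in not1-2, and 3.23 and 2.23 in spt3.

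Over all calls the wild type took no common side, and its side differed by type of probe set. It was nearer to not1-2 for 75 of the 138 higher probe sets and nearer to spt3 for 63, and lay between the mutants for 73.9% of them. Over all probe sets tested that share was 34.4%, though a wide gap between the mutants, for which the calls were chosen, leaves more room between them. Where the probe set named 1 gene, the wild type was nearer to spt3 for 49 of 73, as at SPG4, SRX1 and PHO5. Of the 73, 7 passed the filter on low signals through not1-2 alone, FLO1, JLP1 and MPC3 among them. A low wild type was set in advance for these 7. The wild type was nearer to not1-2 for 24, as at DAN1, TIR3, DAN4, RTA1 and QDR2. For the 35 higher family probe sets that named no gene, the wild type was nearer to not1-2 in all 35. REE1, with 1226 and 701 in not1-2, 415 and 235 in spt3 and 2111 and 1051 in the wild type, is an example in which the wild type was highest. For the lower genes the wild type was nearer to not1-2 in 11 of 19 and nearer to spt3 in 8. The wild type differs from both mutants in mating-type expression, so its place is given as a level only.

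**Figure D5:**
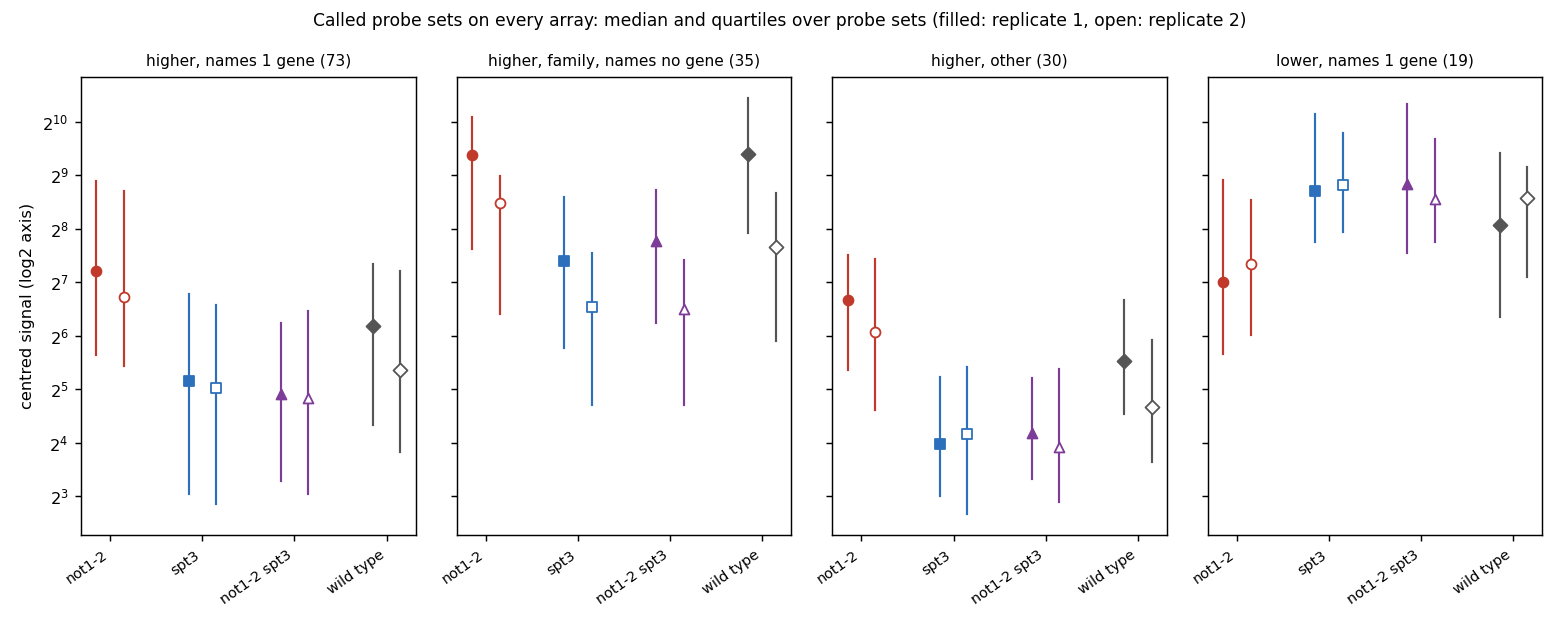
Median (symbols) and quartiles (lines) of the signal over the called probe sets on each array (log2 axis), for 4 sets of calls, with strains in the order not1-2, spt3, not1-2 spt3 and wild type. The double mutant lies close to spt3 in each set, and for the 35 family probe sets that name no gene the wild-type replicate 1 median (673) is close to that of not1-2 (661).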

How the data were processed

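PolyA RNA of 4 strains, 2 arrays each, was biotin-labelled following Affymetrix's standard protocol, per the labels. The authors deposited 1 linear signal intensity for each probe set on each array. The sources used here do not name the software. After trimming 2% of values from both ends, every array's mean intensity came to 100.1, so a common scaling preceded deposition. Of 9335 probe sets 60 controls were left out. Of the other 9275, 6504 named 1 gene in the platform annotation, and all were matched by gene identifier to RefSeq symbols. Those naming several genes (328) or none (2443) were tested without a gene name.

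Medians of the arrays spanned 0.419 in log2, and each array was therefore divided by its own median. Signals were floored at the 10th percentile (1.72) before log2 was taken from these deposited intensities. Probe sets whose highest strain mean was over the 25th percentile (6.99) were kept (7509), and the brightest stood for each gene (7043). Strain means with the replicate number as a block were fitted over 8 arrays with limma 3.58.1 in R 4.3.3 (intensity trend, 2-sided, adjusted p below 0.05). The replicate numbers pair the arrays: after removing strain means, arrays of equal number correlated at 0.383 between not1-2 and spt3 and at 0.188 to 0.739 over the 6 strain pairs. The labels do not call the replicates separate cultures, so the p-values reflect only variation among these arrays, possibly technical. The fit was tested on simulated data.

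The comparison, its 46 gene lists (each with at least 5 measured genes) and its tests were chosen with earlier results of these data known. Named genes are SPT3, CDC39, TRP1 and the mating genes, then the 15 highest and 15 lowest differences among non-overlapping calls naming 1 gene, and for each list its passing members, at most 4, or failing any the 1 or 2 of smallest p. YHR214C-B, GID10, REE1 and the genes of the other observations were chosen after their values were seen. Alternatives changed the block, the arrays, the scaling, the floor, the filter, the probe sets of a gene, the trend, the threshold and the ACT1 covariate.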

Additional observations from a re-analysis of the deposited data

How the results depend on the processing

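The main counts were 138 probe sets higher and 23 lower in not1-2. They became 1 and 1 without the replicate block, 339 and 98 with only the 4 arrays of the strains compared, 66 and 8 without the intensity trend, 22 and 5 with the ACT1 covariate, 360 and 122 at a threshold of 0.1, and 0 and 0 with no filter on low signals. In that last fit limma left 1491 probe sets at an unadjusted p under 0.05 and a smallest adjusted p of 0.159, and its prior degrees of freedom were 1.48, against 5.99. The lower count moved to 15 with a floor at the 5th percentile and to 14 with all probe sets of a gene, beside 100 and 96 higher. Quantile normalization (151 and 25), no centring (173 and 25), a floor at the 20th percentile (170 and 24) and a filter at the median signal (142 and 30) kept both counts within 1.5 times. Leaving out 1 array at a time gave 0 to 188 higher and 0 to 66 lower, and the lone array of a strain was then assumed to vary like the others. Of 5 mating genes that did not pass, some settings turned the sign: STE6 was at -0.12 after quantile normalization and, over the arrays left out, from -0.25 to 0.39, MF(ALPHA)1 from -1.19 to 0.49, MF(ALPHA)2 from -0.17 to 2.37, STE3 from -0.32 to 0.92 and AFB1 from -0.23 to 1.23. The causes were not tested. No called gene named in the text changed sign.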

Other observations

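Calls lay side by side on the chromosomes in 5 places, by the gene order of assembly R64, and both genes were higher in not1-2 each time. These pairs were XBP1 (3.09) with SGA1 (2.62), YJL218W (2.28) with REE1 (1.57), DAN1 (3.61) with DAN4 (1.53), SNO1 (2.56) with SNZ1 (2.91) and YNR064C (3.46) with YNR065C (2.86), as log2 differences. Among the first or last 10 genes of a chromosome were 11 of the 73 higher genes (15.1%) and 2 of the 19 lower genes (10.5%), against 3.07% of the 5348 nuclear genes tested. The higher ones include the transporter genes PHO89 and JEN1, PUG1, a protoporphyrin transporter, and HSP31, a chaperone of the DJ-1 family. The lower ones were IMD2 and YAR068W. HSP31 had 1235 and 623 in not1-2, against 396 and 248 in spt3 (1.49 ± 0.26 SE, limma adjusted p = 0.0305). These patterns were noticed in the same data and were not tested.

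Of the called genes 39 higher and 10 lower ones were in none of the 46 lists. Those with a known role include RGI1, linked to growth on respiratory carbon sources, with 252 and 89.3 in not1-2, against 16.9 and 22.4 in spt3 (2.95 ± 0.47, adjusted p = 0.0249). DAK2, a dihydroxyacetone kinase, had 83.0 and 38.5 in not1-2, against 11.3 and 5.42 in spt3 (2.85 ± 0.31, adjusted p = 0.00879). EXG1, a secreted glucanase of the wall, had 477 and 736 in not1-2, against 178 and 215 in spt3 (1.60 ± 0.34, adjusted p = 0.0497). Among the lower were 2 enzymes of adenine nucleotides: ADK1, adenylate kinase, at -1.08 ± 0.23 (adjusted p = 0.0497), and ADO1, adenosine kinase, at -0.90 ± 0.16 (adjusted p = 0.0321). The lowest estimate of the whole comparison belonged to RDN5-1, a 5S ribosomal RNA gene, at -5.80 (adjusted p = 0.206). It had 14.1 and 7.53 in not1-2, against 70.7 and 4683 in spt3, so that 1 spt3 array set the value.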
